A study of Homalium kanaliense and Homalium betulifolium with 6 samples.

Results

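In leaves of the tree Homalium kanaliense, 200 contigs (assembled transcript sequences) had nearly the same read level in 3 wild plants, while in the related Homalium betulifolium their level differed at least 11.8-fold between 3 wild plants. They were chosen on these measured levels, in CPM, the counts per 1000000 reads of a library after scaling by the trimmed mean of M values (TMM). Of 52634 contigs, 44048 passed the low-count filter, and 11158 of those had a mean of at least 10 CPM in each species. Among these, 6816 had a highest CPM at most 1.5 times the lowest over the 3 H. kanaliense plants. The 200 are the contigs of this eligible set with the largest ratio of highest to lowest CPM over the 3 H. betulifolium plants (0.1 CPM added to both), which is 2.93% of the eligible contigs. All 200 passed the low-count filter, so none is left out below. The spread within each species was thus set by the choice and is described without a test.

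H. kanaliense is labelled a nickel hyperaccumulator, and H. betulifolium a species that does not accumulate nickel. Both grew wild on serpentine soil in New Caledonia, and each library holds leaf RNA of 1 plant. Sampling of H. kanaliense took place at Yate on day 11 of month 6, and that of H. betulifolium 3 months later at La Tontouta. Species, site and date cannot be told apart, and neither plant age nor genotype is stated in the labels. All reads were counted on contigs assembled from 1 H. kanaliense plant.

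As background, nickel hyperaccumulators take up the metal from serpentine soil, which is rich in nickel and poor in nutrients, move it through the xylem and store it in leaf cells, bound to organic acids. Leaf transcript levels in wild plants also follow leaf age, light, water, pests and the plant's own alleles. A read count on a contig of another species depends both on the amount of the transcript and on how closely its sequence matches the contig. The files give each contig a number only and pair none with a gene, a length or a sequence. What the 200 contigs encode, and whether several of them belong to 1 gene, is therefore not analysed here, and the leaf label could not be checked against marker genes. CPM is not divided by contig length, so levels are compared between plants for the same contig.

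The libraries held 37057687 to 56616000 reads. H. betulifolium plant 2 had the fewest reads and plant 1 the most. The TMM factors were 1.14 to 1.26 in H. kanaliense and 0.546, 0.918 and 1.12 in H. betulifolium plants 1, 2 and 3, so that plant 1 was scaled most. Across the other 6616 eligible contigs the median level was 28.8 to 29.4 CPM in the H. kanaliense plants and 41.4, 30.9 and 31.2 CPM, in this order, in the H. betulifolium plants. The part of depth and scaling in the results below was tested only through the other scalings given with them.

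The 200 contigs held a similar share of the reads of each H. kanaliense plant and a smaller share in each H. betulifolium plant. The shares were 3.03%, 2.82% and 3.19% in H. kanaliense plants 1, 2 and 3. They were lower in H. betulifolium, at 2.69%, 1.86% and 1.97% in plants 1, 2 and 3. The median member had 43.4, 47.0 and 47.1 CPM in H. kanaliense plants 1, 2 and 3. Across the H. betulifolium plants it had 58.9, 7.28 and 36.5 CPM in plants 1, 2 and 3. Plant 2 was the low plant of the 3 by this median. The highest member in a plant reached 2101 to 2310 CPM in H. kanaliense. In H. betulifolium it reached 9102 CPM in plant 1, 4590 CPM in plant 2 and 2196 CPM in plant 3.

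**Figure D1:**
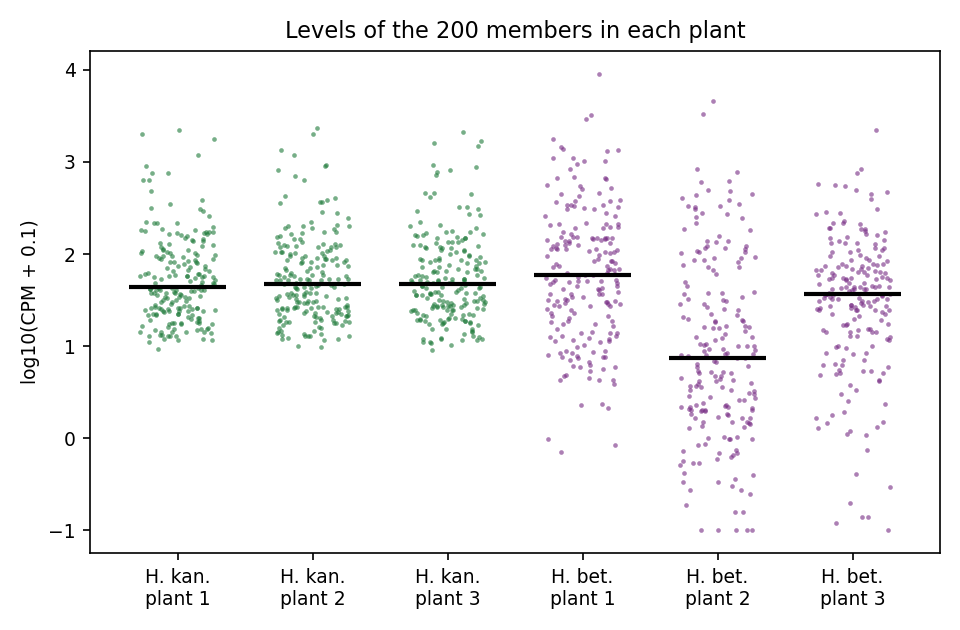
Level of each of the 200 members in each plant, as log10(CPM + 0.1) on the vertical axis, for 3 H. kanaliense plants (green) and 3 H. betulifolium plants (purple); each point is a contig and the black line is the median. The medians lie between 43.4 and 47.1 CPM in H. kanaliense and fall from 58.9 CPM in H. betulifolium plant 1 to 7.28 CPM in plant 2.

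Of the 4 contigs taken as examples, Hkan_v1_contig_374 had the widest spread of all 200. It had 2238, 2310 and 1698 CPM in H. kanaliense plants 1, 2 and 3, a mean of 2082 ± 334 CPM (SD, n = 3). In H. betulifolium it had 1397 CPM in plant 1 (43198 reads), 103 CPM in plant 2 (3490 reads) and 0.314 CPM in plant 3 (16 reads). Plant 1 thus stood at 67.1% of the H. kanaliense mean, plant 2 at 4.93% and plant 3 at 0.0151%. The ratio of plant 1 to plant 3 was 4450 (95% exact interval of counting error 2740 to 7787).

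Hkan_v1_contig_21 was steady in H. kanaliense, at 1774, 1994 and 2101 CPM in plants 1, 2 and 3 (1956 ± 166 CPM, SD, n = 3). It had 1456 CPM in H. betulifolium plant 1, or 74.4% of that mean. Plants 2 and 3 had 12.5 and 9.91 CPM, from 425 and 505 reads. Here 1 plant was near the H. kanaliense level and the other two were far below it. The ratio of the highest to the lowest H. betulifolium plant was 147 (95% exact interval of counting error 135 to 161).

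The other 2 examples had a higher mean in H. betulifolium, in each case through a single plant. Hkan_v1_contig_7278 had 18.1, 24.4 and 26.6 CPM in the 3 H. kanaliense plants. It had 11.3 CPM in H. betulifolium plant 1, 3.27 CPM in plant 2 and 546 CPM in plant 3. Plant 3 was 23.7-fold above the H. kanaliense mean of 23.0 ± 4.40 CPM (SD, n = 3), and plants 1 and 2 were below it, at 49.2% and 14.2%. Its H. betulifolium values rested on 350, 111 and 27831 reads.

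Hkan_v1_contig_14871 had 17.3, 13.4 and 11.7 CPM in H. kanaliense plants 1, 2 and 3 (14.1 ± 2.86 CPM, SD, n = 3). H. betulifolium plant 1 had 143 CPM, which is 10.1-fold above that mean. Plant 2 had 4.06 CPM from 138 reads, and plant 3 had 0 reads. Taking 3 reads as the limit that a count of 0 allows, plant 1 was at least 2431-fold higher than plant 3. None of these 4 contigs passed edgeR's quasi-likelihood test between the species (adjusted p = 0.741 for Hkan_v1_contig_14871, 0.474 for Hkan_v1_contig_7278, 0.683 for Hkan_v1_contig_374 and 0.663 for Hkan_v1_contig_21). All 4 were chosen for a wide spread in H. betulifolium, which lowers the chance of passing. The direction of Hkan_v1_contig_14871 and Hkan_v1_contig_7278 turned when the plant in which each was highest was left out. The log2 fold change (H. kanaliense over H. betulifolium) was 2.80 without H. betulifolium plant 1 for Hkan_v1_contig_14871. It was 1.60 without plant 3 for Hkan_v1_contig_7278. In both, the remaining H. betulifolium plants lay below the H. kanaliense mean, so the turn follows from the levels above.

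**Figure D2:**
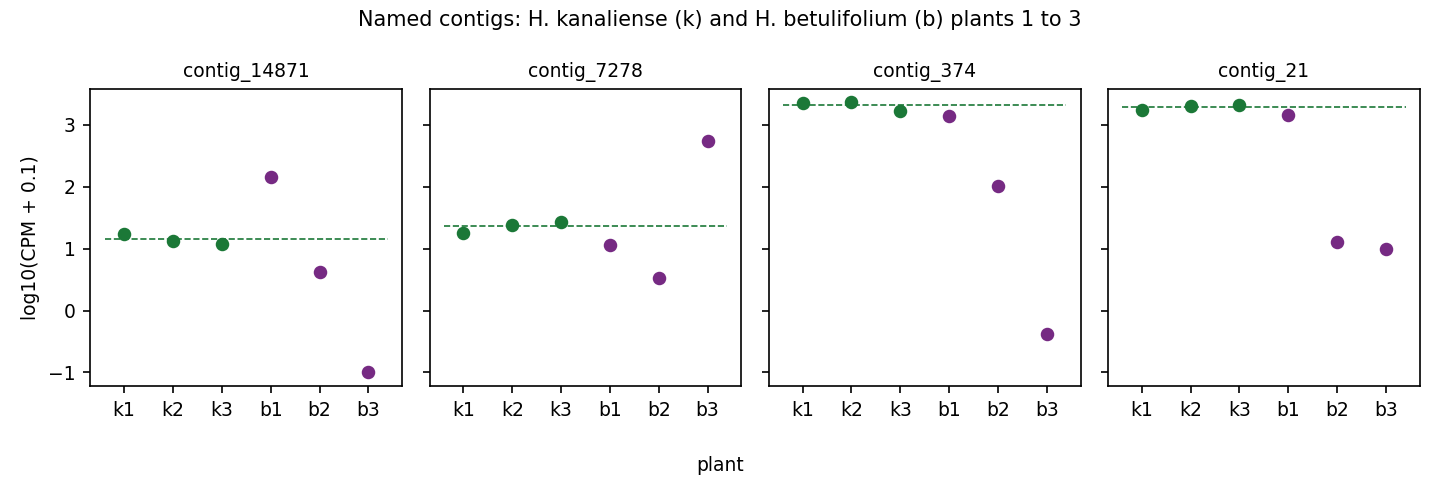
Level of the 4 example contigs as log10(CPM + 0.1), in H. kanaliense plants 1 to 3 (k1 to k3, green) and H. betulifolium plants 1 to 3 (b1 to b3, purple); the dashed line is the H. kanaliense mean, and a point at −1 is a count of 0. The green points stay together in each panel, while the purple points reach 546 CPM in plant 3 for contig 7278 and 0.314 CPM in plant 3 for contig 374.

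Over all 200, the ratio of the highest to the lowest H. betulifolium plant, with 0.1 CPM added to both, had a median of 20.6. This ratio ranged from 11.8 to 3375. It was 20 or more in 105 contigs, 50 or more in 51, 100 or more in 30 and 1000 or more in 5. The added 0.1 CPM lowers the ratio most where the lowest plant is near 0. For Hkan_v1_contig_374 it was 3375 with the addition and 4450 without. In H. kanaliense, with nothing added, the same 200 had a median ratio of 1.31, from 1.04 to 1.5. For the other 6616 eligible contigs the medians were 2.13 in H. betulifolium and 1.24 in H. kanaliense. The last 2 contigs inside the choice had H. betulifolium ratios of 11.81 and 11.78, and the first 2 outside had 11.76 and 11.68, so the list ends within a continuous range.

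**Figure D3:**
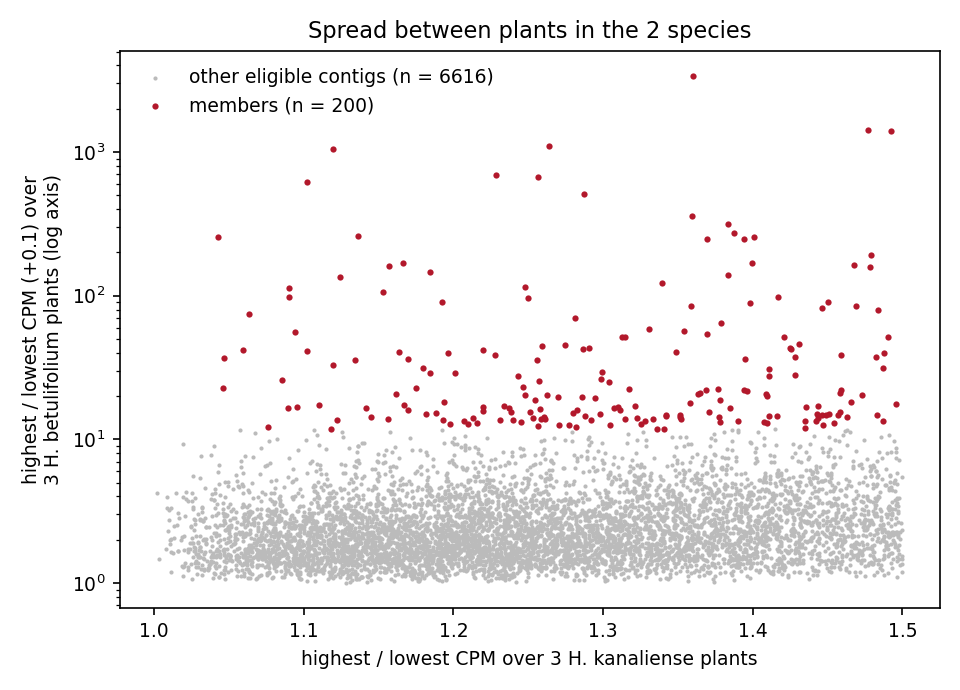
Ratio of the highest to the lowest CPM over the 3 H. kanaliense plants (horizontal axis, linear) against the same ratio over the 3 H. betulifolium plants with 0.1 CPM added (vertical axis, logarithmic), for 200 members (red) and 6616 other eligible contigs (grey). The members begin at 11.8 on the vertical axis, directly above the other contigs, and spread over the whole range up to 1.5 on the horizontal axis.

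The spread rested on many reads in most of the 200 contigs. The lowest H. betulifolium plant had a median of 139.5 reads per contig, and in 114 contigs no plant had fewer than 100 reads. Their median ratio was 15.4 and their largest was 162. In 67 contigs the lowest plant had 10 to 99 reads, in 13 it had 1 to 9 reads and in 6 it had 0. In H. kanaliense no member had fewer than 446 reads in any plant. Of the 6 contigs with a count of 0, plant 2 was the plant without reads in 5 and plant 3 in 1. Against the limit of 3 reads in that library, their highest H. betulifolium plant was at least 281-fold to 2431-fold higher, and their H. kanaliense mean at least 135-fold to 1318-fold higher. Whether these reads are missing because there was no transcript or because its sequence differs was not tested.

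Which H. betulifolium plant was high and which was low played no part in the choice. Plant 2 was the lowest of the 3 in 130 contigs (65.0%), plant 3 in 68 (34.0%) and plant 1 in 2 (1.00%). Among the other eligible contigs these shares were 43.5%, 40.2% and 16.3%. Plant 1 was the highest in 93 members (46.5%), plant 3 in 89 (44.5%) and plant 2 in 18 (9%), against 56.7%, 22.3% and 21.0% of the other eligible contigs. Each plant is a single library, so these counts describe the 3 plants and carry no test.

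**Figure D4:**
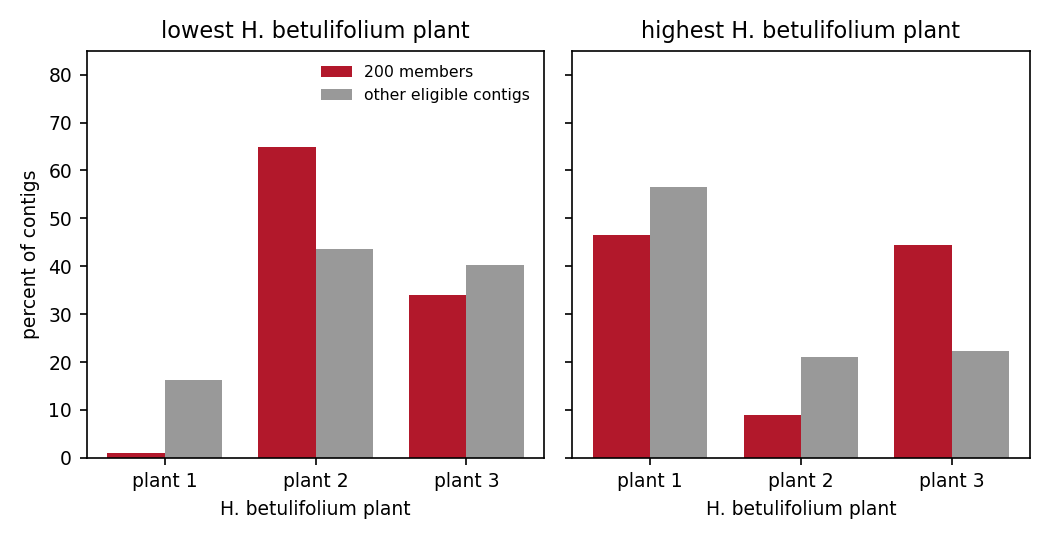
Percent of contigs in which each of the 3 H. betulifolium plants had the lowest level (left) or the highest level (right), for the 200 members (red) and the 6616 other eligible contigs (grey). Plant 2 is lowest in 65.0% of members against 43.5% of the others, and plant 3 is highest in 44.5% against 22.3%.

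The count of contigs with plant 2 lowest changed little with the scaling, while the counts for plant 1, and that with plant 2 highest, changed more. The counts for plant 3 changed with library totals. When the 200 were chosen again on library totals, plant 2 was still lowest in 130, but plant 1 was lowest in 29 and plant 3 in 41. Plant 1 was then highest in 36, plant 2 in 33 and plant 3 in 131. With upper-quartile scaling plant 2 was lowest in 114 and plant 1 in 8, and plant 2 was highest in 40. Among the 181 members with at least 10 reads in every plant, plant 2 was lowest in 115, plant 3 in 64 and plant 1 in 2. Where each plant had at least 100 reads, the lead of plant 2 was nearly gone. Of 114 members, plant 2 was lowest in 59 (51.8%), plant 3 in 55 (48.2%) and plant 1 in 0. A read limit removes contigs very low in a plant. It is stricter in plant 2, where 3 reads equal 0.0883 CPM, than in plant 3, at 0.0589 CPM. The part of this difference in the smaller lead of plant 2 was not tested. Split by ratio instead, plant 2 was lowest in 49 and plant 3 in 45 of the 95 members with a ratio under 20. Of the 30 with a ratio of 100 or more, plant 2 was lowest in 22 and plant 3 in 8.

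The most frequent order was plant 3 above plant 1 above plant 2, in 87 members (43.5%) against 14.3% of the other eligible contigs. The median levels of these 87 were 41.8, 44.6 and 42.8 CPM in H. kanaliense plants 1, 2 and 3. They were 15.4, 2.0 and 63.9 CPM in H. betulifolium plants 1, 2 and 3. Plant 3 was at a median of 144% of the H. kanaliense mean and within 1.5-fold of it in 35 of the 87, while plant 2 was at 5.29% and within 1.5-fold in 0. Of all eligible contigs with this order, 8.42% were members, against 0.375% to 2.68% for the other orders that occurred among members.

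In a further 43 members (21.5%) plant 2 was lowest and plant 1 highest. Their H. betulifolium medians were 112, 3.15 and 32.0 CPM in plants 1, 2 and 3, beside 47.5, 52.1 and 51.6 CPM in H. kanaliense plants 1, 2 and 3. Among these and the 87 above, plant 2 stood at about the same small part of the H. kanaliense mean (medians of 5.74% and 5.29%). Their highest plants differed.

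Plant 3 was lowest and plant 1 highest in 50 members (25%), with medians of 283 CPM in H. betulifolium plant 1, 90.3 CPM in plant 2 and 12.0 CPM in plant 3 and of 63.5, 60.6 and 54.6 CPM in H. kanaliense plants 1, 2 and 3. Relative to the H. kanaliense mean, plants 1, 2 and 3 stood at medians of 343%, 126% and 19.3% in these contigs. In the first 2 orders the medians were 33.9% and 179% for plant 1, and 5.29% and 5.74% for plant 2. Single contigs departed from these medians. Hkan_v1_contig_374 and Hkan_v1_contig_21 have the order described here, with plants 1 and 2 below the H. kanaliense mean. In 18 members (9%) plant 3 was lowest and plant 2 highest, with medians of 99.6 CPM in H. betulifolium plant 1, 232 CPM in plant 2 and 10.6 CPM in plant 3. In the last 2 members plant 1 was lowest and plant 3 highest.

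**Figure D5:**
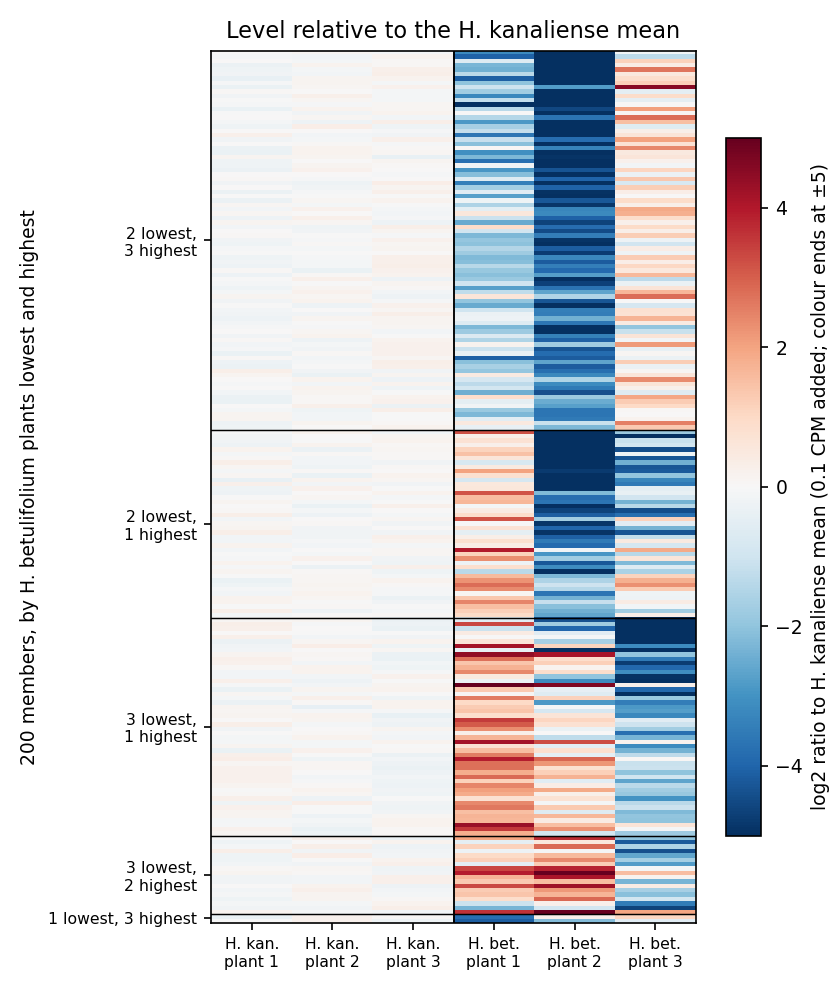
Level of the 200 members (one per line, grouped by which H. betulifolium plants were lowest and highest) in each of the 6 plants, as the log2 ratio to the H. kanaliense mean with 0.1 CPM added to both; blue is below that mean, red above, and the colour ends at ±5. Plant 2 is the blue column in the top groups (87 and 43 contigs) and plant 3 in the next groups (50 and 18 contigs), while the H. kanaliense columns are near white.

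In most members each H. betulifolium plant was over 2-fold from the next, with 0.1 CPM added to each level. The 2 steps could be very unequal, as in Hkan_v1_contig_7278 (3.27, 11.3 and 546 CPM), so 1 plant can still stand far apart. In 137 members (68.5%) both steps, from the lowest to the middle plant and from the middle to the highest, were over 2-fold, against 3.08% of the other eligible contigs. A ratio of 11.8 or more between highest and lowest, which the choice fixed, makes this more likely. Plant 3 alone was low in 23, with the other plants within 2-fold of each other, and plant 2 alone in 21. Plant 1 alone was high in 11 and plant 3 alone in 7, and plant 1 alone was low in 1.

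By pairs, with 0.1 CPM added to each level, plants 2 and 3 differed most. They were over 10-fold apart in 141 members (70.5%), plants 1 and 3 in 88 (44.0%) and plants 1 and 2 in 74 (37.0%). The median differences were 15.3-fold between plants 2 and 3, 7.33-fold between plants 1 and 3 and 6.26-fold between plants 1 and 2. These are also the median ratios without plant 1, without plant 2 and without plant 3. The median of 20.6 thus fell to 15.3 without plant 1, to 7.33 without plant 2 and to 6.26 without plant 3. Of the 200, 136 still had a ratio at or above that of the last member without plant 1, 80 without plant 2 and 69 without plant 3. Plant 1 was above plant 2 in 180 members, above plant 3 in 111, and plant 3 was above plant 2 in 132.

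The H. kanaliense level usually lay inside the range of the H. betulifolium plants. It fell between the lowest and the highest plant in 156 members (78.0%), above all 3 in 36 and below all 3 in 8. The share was 64.1% among the other eligible contigs, whose narrower range makes this less likely. Without H. betulifolium plant 3 the H. kanaliense mean lay between plants 1 and 2 in 66 members, and without plant 1 or plant 2 it lay between the remaining plants in 112 and 134.

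Among the members, departures from the H. kanaliense level were more often downward. At least 1 H. betulifolium plant was over 4-fold below the H. kanaliense mean in 159 members (79.5%), and at least 1 was over 4-fold above it in 52 (26.0%). Among the other eligible contigs, whose range is limited by the choice, these shares were 3.30% and 5.35%. In 14 members plants departed over 4-fold both ways, and in 3 no plant did. In 52 members 2 or more plants were over 4-fold below, and in 11 members 2 or more were over 4-fold above. By plant, those over 4-fold below were 34 members in plant 1, 124 in plant 2 and 53 in plant 3. Those over 4-fold above were 36 in plant 1, 16 in plant 2 and 11 in plant 3.

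Plant 3 was the plant closest to the H. kanaliense mean in 94 members (47.0%), plant 1 in 70 (35.0%) and plant 2 in 36 (18.0%). Among the other eligible contigs these shares were 44.8%, 23.9% and 31.3%. Plant 3 was within 1.5-fold of the H. kanaliense mean in 54 members, plant 1 in 40 and plant 2 in 19. In 89 members exactly 1 of the 3 plants was within 1.5-fold, in 12 members 2 were, and in 99 none was. The median level relative to the H. kanaliense mean was 107% in plant 1, 9.70% in plant 2 and 78.3% in plant 3. For the other eligible contigs it was 142%, 103% and 107%.

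The share of eligible contigs that became members was larger at higher H. kanaliense levels. It was 1.60% of 1998 contigs with a mean of 10 to 20 CPM, 2.52% of 2981 between 20 and 50 CPM, 3.40% of 1148 between 50 and 100 CPM and 7.51% of 666 between 100 and 1000 CPM. At 1000 CPM or more it was 4 of 23. The choice also required an H. betulifolium mean of at least 10 CPM. A contig of low H. kanaliense level that is much lower in some H. betulifolium plants can fail this limit, so the rise may be partly built in. How far it is was not tested. The H. betulifolium mean was the higher one in 28 of 32, 29 of 75, 19 of 39, 17 of 50 and 0 of 4 members, from the lowest class to the highest. Over all eligible contigs in these classes the median H. betulifolium ratio was 2.06, 2.07, 2.34, 3.00 and 3.62. These 4 abundant members, 2 of them among the examples above, had H. kanaliense means of 1335 to 2082 CPM, and their H. betulifolium means were lower, at 493 to 1137 CPM. In all 4, plant 1 had over 1000 CPM (1092 to 2916 CPM) and plant 2 had 12.5 to 122 CPM. Plant 3 ranged from 0.314 CPM in 1 of them to 2196 CPM in another.

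Whether the members differed between the species, one accumulating nickel and one not, is the question of the study's own comparison. With the spread in H. betulifolium this wide, 0 of the 200 were called by edgeR's quasi-likelihood test at a Benjamini-Hochberg adjusted p under 0.05, against 0.885% of the 44048 contigs tested. The lowest adjusted p of a member was 0.097. At an unadjusted p under 0.05 there were 17 members (8.50%), against 13.8% of all contigs. The choice of contigs that vary in H. betulifolium lowers the chance of a call, so these counts say nothing about the level of the contigs in the species.

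limma-voom called 0 members against 1.80% of all contigs. It gave 32 members (16%) an unadjusted p under 0.05, against 16.3% of all contigs and 9.79% of the other eligible contigs. DESeq2 gave no adjusted p for 25 members and called 12 of the other 175 (6.86%), against 7.55% of 43451 contigs with an adjusted p. All 12 were lower in H. kanaliense, a direction in which DESeq2 called 2.87% of all contigs. Among the other eligible contigs it called 205 (3.10%), of which 178 were lower in H. kanaliense.

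The mean in H. betulifolium was above that of H. kanaliense in 93 members (46.5%) and below it in 107. For the other eligible contigs the mean was above in 73.0%. Among the 114 members in which no plant had under 100 reads, a limit that removes contigs very low in a plant, it was above in 74 (64.9%). The median log2 fold change of the members (H. kanaliense over H. betulifolium) was 0.15 in edgeR, against 0.0044 over all tested contigs, with a range of -4.70 to 2.68. In limma-voom, which averages plants on the log scale, the median was 1.27 against 0.20 over all contigs. A plant far above the others thus weighed more in the first value, and a plant far below weighed more in the second.

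The plants of the 2 species did not overlap in 34 members (17.0%), against 23.8% of all tested contigs. Among the other eligible contigs the share was 24.9%. H. kanaliense was above in 28 of the 200 members and H. betulifolium in 6, against 14.6% and 9.15% of all tested contigs. As a share of the members, H. kanaliense above was about as frequent as among all contigs, and H. betulifolium above was less frequent. The choice of contigs with a wide H. betulifolium spread makes a lack of overlap less likely.

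Leaving out H. betulifolium plant 3 changed the test. edgeR then called 17 members (8.50%), 6 higher and 11 lower in H. kanaliense, against 1.49% of 46926 contigs. At an unadjusted p under 0.05 there were 90 members (45.0%), against 22.4% of all contigs. The lowest adjusted p of a member was 0.021. In all 17, plant 3 was the extreme plant of its species, the lowest in 11 and the highest in 6. Over all 200 members it was the lowest in 68 and the highest in 89. Leaving out a plant narrows the H. betulifolium range only where that plant is extreme, so the extreme position of plant 3 in these 17 was largely fixed. The number of calls was not: plant 2 was lowest in 130 members and highest in 18, and the fit without it called 0. Why the fits differed was not tested. In 11 of the 17, plant 3 reached the range of the H. kanaliense plants or lay past it. The choice of members used the same plants, so these calls are given as a description. Leaving out any 1 of the other 5 plants gave 0 calls in edgeR among all contigs tested, members included. At an unadjusted p under 0.05 there were 4% to 5.5% of members (8 to 11) without an H. kanaliense plant, against 9% to 9.48% of all contigs. Without H. betulifolium plant 1 or plant 2 there were 15.5% and 17.0% of members (31 and 34), against 15% and 16.1% of all contigs.

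The opposite pattern, steady in H. betulifolium and variable in H. kanaliense, was rare under the same limits and TMM scaling. Of the 11158 contigs with a mean of at least 10 CPM in each species, 1629 (14.6%) had a highest CPM at most 1.5 times the lowest over the H. betulifolium plants, against 6816 (61.1%) over the H. kanaliense plants. Of these 1629, 3 (0.184%) had an H. kanaliense ratio as large as that of the last member, and the 200th largest ratio was 1.66. Without a limit on the other species, 922 of the 11158 (8.26%) reached this ratio in H. betulifolium and 164 (1.47%) in H. kanaliense. The reference came from H. kanaliense, which coincides with species in all of these counts and cannot be told apart from it. After scaling, H. betulifolium plant 1 also kept a higher median over the other eligible contigs, 41.4 CPM against 30.9 and 31.2 CPM in plants 2 and 3. Such an offset between plants leaves fewer contigs within 1.5-fold in H. betulifolium. These counts were not repeated with another scaling, so its part in them was not tested.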

How the data were processed

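Per the labels' protocols, leaves were stabilised in RNAlater, total RNA was extracted with TRIzol LS and DNase-treated, and stranded mRNA libraries were made with an Illumina kit. The deposited values are raw read counts per contig, per the file headers. How reads were aligned and counted, and where reads matching several contigs went, is not given in the sources used here. Where read mates were counted separately, limits and intervals from counts are too narrow; they cover counting error only.

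From the counts, contigs were filtered with filterByExpr (minimum count 10, minimum total 15) and scaled by TMM, and CPM was computed with edgeR 4.0.16 (R 4.3.3). Species were compared over all 6 plants with glmQLFit (robust) and glmQLFTest, with Benjamini-Hochberg adjustment over 44048 contigs; the spread behind each p-value is that between these individual plants. DESeq2 1.42.0 and voom of limma 3.58.1 were alternatives. The fit and the choice of contigs were also run on simulated data. For the choice, the planted contigs stood well apart from the others, unlike the continuous range here. That run therefore checks only that the rule was applied as stated. Figures used matplotlib 3.10.9.

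The 200 contigs and the comparisons were chosen with earlier results of these data known. On each side of the species difference the examples were the contig with the largest H. betulifolium ratio and the one with the largest ratio among contigs in which no plant had fewer than 100 reads.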

Additional observations from a re-analysis of the deposited data

How the results depend on the processing

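edgeR called 0 members with library totals and with upper-quartile or median-of-ratios scaling, without a low-count filter and with at least 10 reads in every plant (15 to 21 members at an unadjusted p under 0.05), where 0.682% to 1.27% of all contigs were called; limma-voom also called 0, DESeq2 called 12, and fits without 1 plant called 0 to 17. Library totals moved the median log2 fold change of all contigs to 0.48 and of the members to 0.67. With the replicate number as a block (replicate block), edgeR called 0 of all contigs. Of the members, 22 (11.0%) had an unadjusted p under 0.05, against 10.7% of all contigs, and the lowest adjusted p was 0.238. The numbers mark different plants at different sites, and deviations of same-numbered plants correlated at -0.0013, -0.073 and 0.152 across all tested contigs and at 0.288, 0.026 and 0.325 across the members, for numbers 1, 2 and 3.

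Chosen again under another setting, the 200 had plant 1 lowest in 1 (median-of-ratios scaling, a mean of at least 20 CPM, or 1 CPM added), 8 (upper quartiles), 29 (library totals) and 6 (H. kanaliense ratio at most 1.3), against 2 in the list described. Plant 3 was lowest in 41 and plant 1 highest in 36 with library totals. Plant 2 was highest in 40 with upper quartiles, 33 with library totals and 11 with a ratio of at most 2, against 18. In the same 200 contigs, library totals gave plant 1 lowest in 6 and plant 2 highest in 30. Of the 114 with at least 100 reads in every plant, plant 1 was lowest in 0, plant 2 was lowest in 59 and plant 3 was highest in 36. The orders in the same contigs and the choice without single plants were added after the data were seen. Plant 2 was lowest in 111 to 144 of the 200 contigs in each list chosen with all 6 plants, and in the same 200 under other scalings. The order was not computed for lists chosen without a plant. The choices shared 88 to 193 of 200 contigs with the list described, and 51 to 140 when 1 plant was left out, so single members depend on the limits and on each plant.

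Leaving out 1 H. betulifolium plant gave a median ratio of 6.26 to 15.3 and the H. kanaliense mean inside the range in 66 to 134 members. The log2 fold change of Hkan_v1_contig_14871 was 3.36 in limma-voom and 1.81 with the replicate block, against -1.80, and -2.43 to 2.80 with 1 plant left out. That of Hkan_v1_contig_7278 was 0.15 with the block, against -3.02, and -3.61 to 1.60 with 1 plant left out. Hkan_v1_contig_374 and Hkan_v1_contig_21 kept their direction in all 14 alternatives, and none of the 4 was called where it had an adjusted p. DESeq2 gave none for Hkan_v1_contig_14871 and Hkan_v1_contig_7278, and the limit of 10 reads in every plant removed the first. The cause of these changes was not tested.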
